A study of Mus musculus with 6 samples.

Results

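The interleukin-6 (IL-6) cytokine family was examined in podoplanin-positive cancer-associated fibroblasts (pCAFs) of mouse mammary tumours, through 10 genes taken by symbol from a table of 12235. The 10 were the ligand genes Il6, Il11 and Lif, the receptor chain genes Il6st, Osmr, Lifr, Il6ra and Il11ra1, and Stat3 and Socs3, the transcription factor and the feedback inhibitor downstream. Each of the 10 had reads in every library and a mean normalised count of at least 5, the level required for testing. All are protein-coding genes. RNA came from 3 libraries of Ly6C+ and 3 of Ly6C- pCAFs, taken from 4T1 tumours, a BALB/c mammary carcinoma line, after orthotopic injection of 100000 cells into 8-week-old BALB/c females. The labels name the 4T1 line once with GFP and once with luciferase. In both groups the sorted cells were PDPN+, negative for Ter119, CD45 and EpCAM, and unstained by propidium iodide, and they differed in surface Ly6C. Libraries were made from mRNA 3' ends. The labels call the 3 libraries of a group repetitions without tying them to separate mice, so p-values measure the spread between these libraries, which may be technical.

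IL-6 family cytokines act through gp130, the shared signalling chain that Il6st encodes. IL-6 and IL-11 first bind their own non-signalling alpha chains, IL-6R (Il6ra) and IL-11R alpha (Il11ra1), and then gather gp130. LIF pairs gp130 with LIFR, and oncostatin M pairs it with OSMR. The JAK kinases bound to these chains phosphorylate STAT3, which switches on Socs3, whose product binds gp130 and damps the signal. In tumour stroma, IL-6 and LIF are known as products of inflammatory fibroblasts, and IL-11 as a fibroblast cytokine that TGF-beta induces.

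Values are normalised counts, which are reads of a gene divided by a size factor of the library, and they are given for replicates 1, 2 and 3 in that order. The libraries held 1176909 to 2818269 reads on the table's genes, and each Ly6C- library was shallower than each Ly6C+ library. Folds are ratios of group means. Differences on the log2 scale, always Ly6C+ minus Ly6C-, were fitted with limma to log2(value + 1), a scale that understates the change of low genes, and a gene passed at an adjusted p under 0.05. Across 9646 tested genes, 17.1% passed, 9.41% higher and 7.66% lower in Ly6C+ pCAFs. With every library scaled to its total, 1936 genes passed, 37.4% of them higher, against 55.1% of 1647 here, and the median difference over all genes moved to -0.19 on the log2 scale, while of the 10 family genes 4 were then higher and 2 lower. All 10 fibroblast markers examined, Col1a1 and Pdgfra among them, were detected. Their summed level was 67779 to 76553 in Ly6C+ and 46904 to 61024 in Ly6C- libraries. The markers went both ways: 5 were higher in Ly6C+ pCAFs, Pdgfra among them, and 1, Pdgfrb, was lower (limma adjusted p = 0.0106). Col1a1, Col1a2, Thy1 and Fap did not pass. In bulk RNA, fewer cells that express a gene and less of its RNA per cell cannot be told apart.

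Of the 10 family genes, 5 were higher and 1 was lower in Ly6C+ pCAFs, against 9.41% and 7.66% of all tested genes, and 4 did not pass. For 7 of the 10 every library of a group lay on the same side of the other group, as it did for 33.1% of tested genes. The 5 that rose were Il6st, Osmr, Il6ra, Il11ra1 and Socs3, and the one that fell was Il11. By role, 4 of 5 receptor chains and 1 of 2 genes of the STAT3 arm were higher, and 1 of 3 ligands was lower. Roles were not tested against each other. Il11, Il6st, Il11ra1 and Socs3 passed in each of 21 alternative settings. Without Ly6C+ replicate 1, 4 of the 10 passed, 3 higher and 1 lower.

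**Figure D1:**
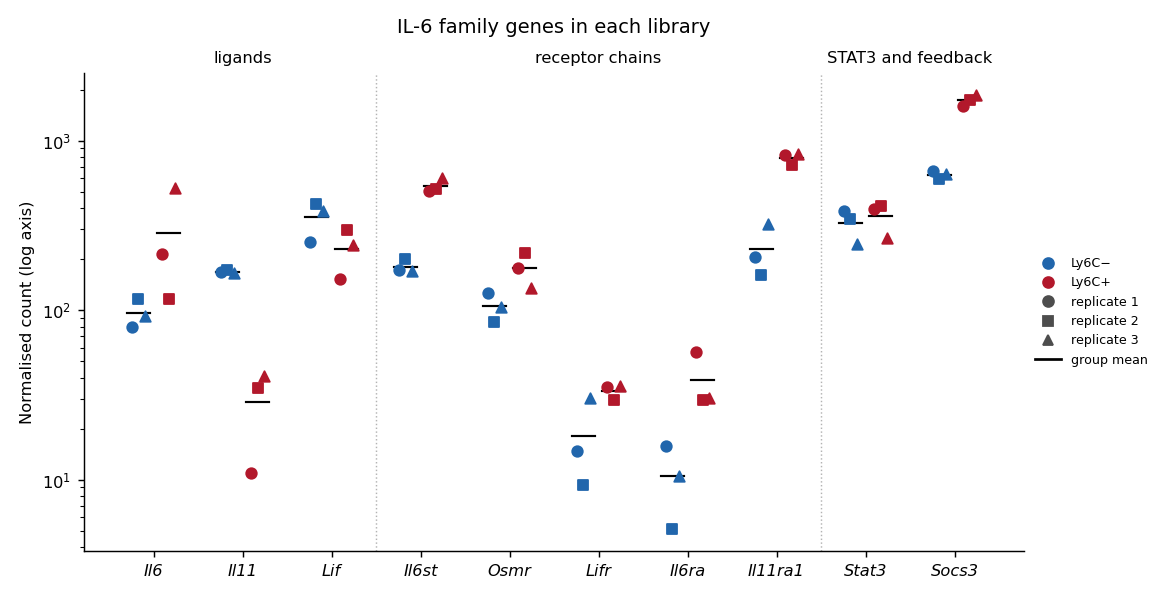
Normalised counts (log axis) of the 10 family genes in each of the 6 libraries, with colour for the group, symbol for the replicate number and a bar for the group mean. Il11 lies far below its Ly6C- values in all Ly6C+ libraries, while Il6st, Il11ra1 and Socs3 lie above theirs, and Stat3 overlaps.

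Among the ligands, Il11 (chromosome 7, 4772373 to 4782859, minus strand, mm10) stood at 10.98, 34.6 and 41.0 in Ly6C+ and at 168, 172 and 165 in Ly6C- libraries. The Ly6C- values lay within a narrow band, and the highest Ly6C+ library stayed far below them. Il11 was 5.84-fold lower in Ly6C+ pCAFs (limma log2 fold change -2.70, SE 0.39, adjusted p = 0.000616; 117 against 499 reads). Keratin and other epithelial or 4T1 markers, 9 of 9 detected, also summed to less in Ly6C+ libraries, at 12.8 to 47.9 in Ly6C+ and 119 to 360.2 in Ly6C- libraries, and 2 of 4 tested markers, Krt19 and Krt14, were lower in Ly6C+ pCAFs. Epcam, Cdh1, Cldn4 and Cldn7 stayed below 5 in every library. Markers of pericytes and smooth muscle, 8 of 8 detected, also summed to less in Ly6C+ libraries (190.3 to 246 against 604 to 1109). They did not move as 1 group, since of 7 tested 5 were lower, Cspg4 and Des among them, and Kcnj8 was 3.92-fold higher (limma adjusted p = 0.000367). The part of either cell type in the Il11 difference was not tested.

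Il6 (chromosome 5, 30013114 to 30019981, plus strand), the cytokine that names the family, stood at 215, 117 and 527 in Ly6C+ and at 79.7, 116 and 91.8 in Ly6C- libraries. Ly6C+ replicate 3 was far above the others, and Ly6C+ replicate 2 lay next to the highest Ly6C- library. The ratio of means was 2.99, and Il6 did not pass (log2 fold change 1.31, SE 0.42, 95% interval 0.38 to 2.25; limma adjusted p = 0.0572). Without Ly6C+ replicate 3 the ratio was 1.73 (limma adjusted p = 0.126), whereas without Ly6C+ replicate 2 Il6 passed (log2 fold change 1.82; limma adjusted p = 0.00601). It also passed in edgeR with TMM factors (adjusted p = 0.0265) and RLE factors (adjusted p = 0.0267), and the 21 alternatives together gave 0.00601 to 0.142.

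Lif (chromosome 11, 4257557 to 4272514, plus strand), which encodes leukaemia inhibitory factor, stood at 153, 296 and 242 in Ly6C+ and at 253, 423 and 385 in Ly6C- libraries. The groups overlapped, since Ly6C+ replicate 2 exceeded Ly6C- replicate 1. Its Ly6C- mean was 1.54 times the Ly6C+ mean, and it did not pass (log2 fold change -0.63, SE 0.26, interval -1.22 to -0.05; limma adjusted p = 0.138). Without Ly6C- replicate 1 it passed (-0.86; limma adjusted p = 0.0372), as it did with every library scaled to its total (-0.83; limma adjusted p = 0.0448).

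Il6 and Il11 were then set against each other inside each library, because their ratio does not depend on the library's size factor. The Il6 value divided by the Il11 value was 19.6, 3.37 and 12.9 in the Ly6C+ libraries against 0.474, 0.673 and 0.556 in the Ly6C- group. The groups did not overlap on this ratio, and the lowest Ly6C+ ratio was that of the library with the least Il6 of the 3. On the log2(value + 1) scale the ratio averaged 3.18 ± 1.29 (SD, n = 3) and -0.83 ± 0.25 (SD, n = 3), a difference of 4.01. An exact two-sided permutation test gave p = 0.1, the smallest value that 3 libraries against 3 allow. Every Ly6C+ library already lay above all Ly6C- libraries for Il6 and below them for Il11. The ratio therefore had to separate the groups, and this p was fixed by the single genes and adds no support. The difference ran from 3.51 to 4.74 with 1 library left out.

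**Figure D2:**
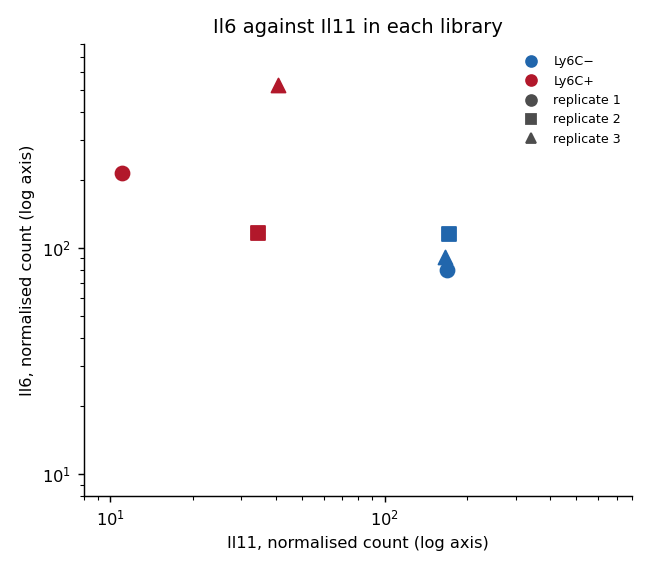
Il6 (vertical) against Il11 (horizontal) in normalised counts, both on log axes, with 1 point per library. The 3 Ly6C- libraries lie together at 165 to 172 Il11, and the 3 Ly6C+ libraries lie at 10.98 to 41.0 Il11 with Il6 spread from 117 to 527.

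The RefSeq promoters of the 10 genes (GRCm38.p6, 250 bases before to 50 after an annotated start) were searched on both strands for 5 motifs. These were the STAT site TTCNNNGAA, a 10-base NF-kB site, the C/EBP site TTGCNNAA, the AP-1 site TGANTCA and the cyclic AMP response element TGACGTCA, which occur in 8.3%, 0.411%, 10.8%, 7.81% and 1.79% of 32851 promoters. The promoters of Il6 and Il11 are shown because their products share gp130 while Il11 fell and Il6 had the higher Ly6C+ mean, with matches in capitals. That of Il6 (chr5:30012864-30013163, plus strand) holds an AP-1, a C/EBP and an NF-kB match in this order. Il11 has 2 listed starts, and the downstream one (chr7:4778092-4778391, minus strand) holds 1 AP-1 match, while the upstream one holds none of the 5 motifs.
Il6: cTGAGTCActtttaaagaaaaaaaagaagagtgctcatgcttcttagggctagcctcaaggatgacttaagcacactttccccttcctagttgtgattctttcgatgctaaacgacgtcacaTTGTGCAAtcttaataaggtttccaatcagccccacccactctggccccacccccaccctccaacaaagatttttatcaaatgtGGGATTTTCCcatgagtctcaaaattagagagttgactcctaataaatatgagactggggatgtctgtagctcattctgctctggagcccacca
Il11: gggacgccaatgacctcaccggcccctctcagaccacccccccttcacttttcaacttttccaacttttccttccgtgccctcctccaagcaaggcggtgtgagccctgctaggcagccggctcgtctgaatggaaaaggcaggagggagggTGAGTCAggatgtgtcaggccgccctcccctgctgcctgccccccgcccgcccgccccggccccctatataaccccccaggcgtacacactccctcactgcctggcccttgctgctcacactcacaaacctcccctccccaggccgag
Lif and Osmr each held an AP-1 match, and a STAT match was found for Socs3 alone among the 10 genes. The Osmr match lies at bases 3 to 9 from its RefSeq start, which is 656 bases from the GENCODE gene start. A match is a string of letters and not evidence of binding.

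Of the other ligand genes of the family, Clcf1 and Ctf1 are given here. Clcf1, the gene of cardiotrophin-like cytokine factor 1, stood at 29.3, 52.6 and 28.6 in Ly6C+ libraries against 106, 83.4 and 64.2 in the Ly6C- group. No Ly6C+ library reached a Ly6C- one, and Clcf1 was 2.30-fold lower in Ly6C+ pCAFs (limma log2 fold change -1.21, SE 0.28, adjusted p = 0.0127). Its call ended without Ly6C+ replicate 1, Ly6C+ replicate 3 or Ly6C- replicate 2 (limma adjusted p = 0.0649, 0.0502 and 0.0515), and its gene model overlaps another on the same strand. Cntfr, the alpha chain of the ciliary neurotrophic factor receptor, which engages gp130 and LIFR, stood at 3.66, 7.52 and 3.86 against 13.8, 11.9 and 7.87, without overlap, and did not pass (limma log2 fold change -1.04, SE 0.42, adjusted p = 0.129). It rested on 21 and 34 reads. Ctf1, cardiotrophin 1, had means of 6.51 and 11.2 and did not pass (limma adjusted p = 0.284). Osm, Ctf2, Cntf, Il27, Ebi3 and Il31 were not analysed here.

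Receptor chains were higher in Ly6C+ pCAFs for 4 of 5, against 9.41% of all tested genes, and Lifr did not pass. Il6st (chromosome 13, 112464070 to 112510086, plus strand), the gp130 gene, stood at 506, 516 and 598 in Ly6C+ and at 172, 200 and 170.4 in Ly6C- libraries. Both groups were tight, and the difference was 2.99-fold (limma log2 fold change 1.57, SE 0.16, adjusted p = 5.41e-05). Il11ra1 (chromosome 4, 41699989 to 41769474, plus strand), the IL-11 alpha chain, stood at 821, 720.1 and 834 against 205, 162 and 324. It was 3.44-fold higher in Ly6C+ pCAFs (limma log2 fold change 1.84, SE 0.23, adjusted p = 0.000255), the opposite direction to its ligand gene Il11. Its value is uncertain in part, because the mouse genome carries a near-identical copy, Il11ra2, not analysed here, and its gene model overlaps 6 other genes.

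Il6ra (chromosome 3, 89864059 to 89913196, minus strand), the IL-6 alpha chain, stood at 56.7, 29.3 and 30.1 in Ly6C+ and at 15.7, 5.10 and 10.5 in Ly6C- libraries. No Ly6C- library reached a Ly6C+ one, at 3.71-fold (limma log2 fold change 1.85, SE 0.41, adjusted p = 0.00907), on 171 and 30 reads. Ly6C+ replicate 1, the highest, was also the library with granulocyte RNA: 4 of 5 granulocyte markers were detected (Csf3r was not analysed here), and their summed level ran from 3.09 to 693 over the Ly6C+ libraries and was 0 in the Ly6C- group. S100a8 stood at 179, 3.01 and 0 and S100a9 at 478, 4.51 and 2.32 in the Ly6C+ libraries. Markers of macrophages and monocytes, 7 of 8 detected, summed to 115 to 348 in Ly6C+ and 52.4 to 135 in Ly6C- libraries. Of 4 tested, Lyz2 alone was higher, at 264, 98.5 and 27.0 in Ly6C+ libraries (limma adjusted p = 0.0124). Csf1r, Cd68 and Cd14 did not pass (limma adjusted p = 0.718, 0.68 and 0.311), and Ptprc, Mrc1 and Itgam stayed below 5 in every library. Of 8 lymphocyte markers 1 was analysed, Cd3e, at 165, 88.7 and 121 in Ly6C+ libraries against 19.7, 18.7 and 10.5 (limma adjusted p = 6.45e-05), and 2 other annotated genes overlap it. Il6ra is known to be expressed by granulocytes, monocytes and T cells, and the part of these cell types in its difference was not tested. Its gene model also overlaps an antisense gene, Gm42809, by 281 bases. Without Ly6C+ replicate 1, Il6ra was 2.85-fold higher and no longer passed (log2 fold change 1.54, limma adjusted p = 0.0622). The other 2 Ly6C+ values still lay above all Ly6C- values.

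Osmr (chromosome 15, 6813577 to 6874969, minus strand), the oncostatin M receptor chain, stood at 177, 217 and 135 in Ly6C+ and at 126, 85.1 and 105 in Ly6C- libraries. The lowest Ly6C+ and the highest Ly6C- library were close, and the difference was 1.68-fold (limma log2 fold change 0.73, SE 0.22, adjusted p = 0.0445). The call held in 14 of 21 alternatives and ended without Ly6C+ replicates 1 or 2 or Ly6C- replicates 2 or 3 (limma adjusted p = 0.127, 0.187, 0.188 and 0.0643) and with every library scaled to its total (limma adjusted p = 0.114). Lifr (chromosome 15, 7090614 to 7197489, plus strand), the LIF receptor chain, stood at 35.4, 29.3 and 35.5 against 14.8, 9.36 and 30.2. Ly6C- replicate 3 reached the Ly6C+ range, and Lifr did not pass (log2 fold change 1.00, SE 0.37, interval 0.18 to 1.82; limma adjusted p = 0.0984). Without that library the ratio of means rose from 1.85 to 2.77 and Lifr passed (limma adjusted p = 0.00699).

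**Figure D3:**
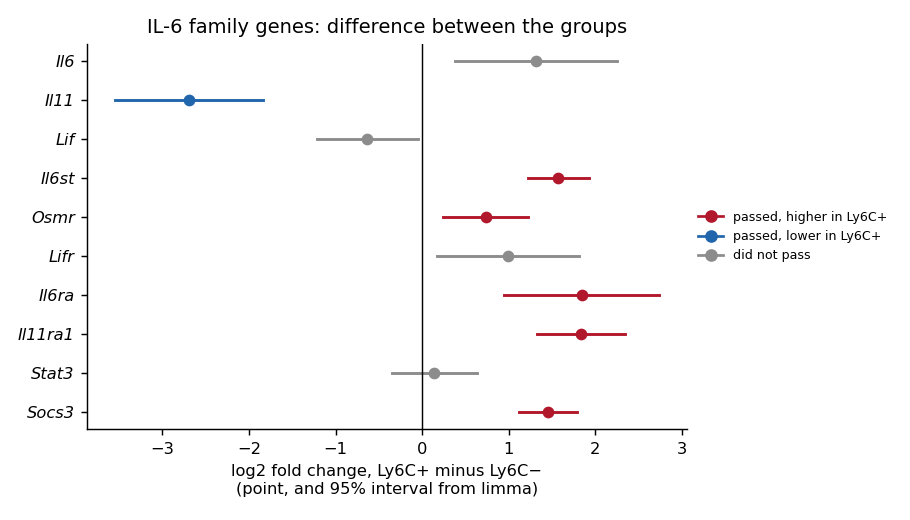
Log2 fold changes (Ly6C+ minus Ly6C-) of the 10 family genes with 95% intervals from limma that are not adjusted for the number of genes. The 4 receptor chains and Socs3 that passed lie to the right of 0, Il11 lies to the left at -2.70, and Stat3 lies at 0.14.

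Other receptor chains were scarce. Of 4 listed, Cntfr and Il27ra were tested and did not pass. Il27ra, the IL-27 receptor alpha chain, stood at 10.98, 7.52 and 9.27 against 3.94, 2.55 and 6.56 (limma log2 fold change 0.99, SE 0.44, adjusted p = 0.166). Il31ra had reads in Ly6C+ replicate 3 alone, at 10.04, and lay under the level for testing.

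Genes for the shedding of receptors from the cell surface, by which soluble IL-6R arises, differed at 1 of 4 members, where 17.1% of all tested genes passed. Rhbdf2, which encodes iRhom2, a rhomboid-like protein that carries the sheddase ADAM17 to the surface, stood at 9.15, 6.01 and 6.95 in Ly6C+ and at 95.5, 66.4 and 48.5 in Ly6C- libraries. It was 9.51-fold lower in Ly6C+ pCAFs (limma log2 fold change -3.05, SE 0.31, adjusted p = 5.16e-05; 32 against 212 reads) and passed in all 21 alternatives. Its paralog Rhbdf1 had means of 346 and 273 (limma adjusted p = 0.1996), and the protease gene Adam17 means of 117 and 106 (limma adjusted p = 0.655). Neither passed, nor did Adam10.

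Stat3 (chromosome 11, 100885098 to 100939540, minus strand) stood at 397, 413 and 267 in Ly6C+ and at 384, 345 and 246 in Ly6C- libraries. The groups overlapped throughout, and Stat3 did not pass in any of 21 alternatives (log2 fold change 0.14, SE 0.22, interval -0.35 to 0.63; limma adjusted p = 0.749). The direction turned with every library scaled to its total (-0.06) and without Ly6C- replicate 3 (-0.05). Its last 72 bases overlap those of Stat5a on the opposite strand, and the strand setting of the counting was not given in the sources used here.

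Socs3 (chromosome 11, 117966079 to 117970047, minus strand), the feedback inhibitor, stood at 1606, 1725 and 1868 in Ly6C+ and at 661, 596 and 635 in Ly6C- libraries. The groups were well apart, and Socs3 was 2.75-fold higher in Ly6C+ pCAFs (limma log2 fold change 1.46, SE 0.15, adjusted p = 5.78e-05). Its promoter is shown for the STAT match in capitals, TTCTTAGAA, at bases -154 to -146 from the RefSeq start (chr11:117969317-117969616, minus strand). That start lies 681 bases from the GENCODE gene start, so the window and its match lie within the gene coordinates given above.
Socs3: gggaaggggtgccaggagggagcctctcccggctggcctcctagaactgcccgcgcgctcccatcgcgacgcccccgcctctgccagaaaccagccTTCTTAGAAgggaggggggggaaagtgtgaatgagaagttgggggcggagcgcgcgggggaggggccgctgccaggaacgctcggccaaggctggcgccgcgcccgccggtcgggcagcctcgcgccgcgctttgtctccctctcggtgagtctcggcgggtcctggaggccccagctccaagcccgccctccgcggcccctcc
Socs3 is also known as an early response gene that tissue dissociation can raise. Fos and Junb, which dissociation raises too, were higher in Ly6C+ pCAFs (2.07-fold and 1.72-fold; limma adjusted p = 0.00184 and 0.00897). Both calls ended with quantile normalization (limma adjusted p = 0.0602 and 0.0954), and that of Junb also without Ly6C- replicate 2 (0.0562). The part of dissociation in the Socs3 difference was not tested.

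Genes known as STAT3 targets were higher in Ly6C+ pCAFs for 13 of 21, lower for 2, and did not pass for 6, against 9.41% higher and 7.66% lower of all tested genes. Their median log2 fold change was 1.023, and that of all tested genes -0.0007. The 13 include Fos and Junb, given above. The list was chosen with earlier results of these data known, and whether STAT3 drove these differences was not tested. Serpina3n, a secreted serine protease inhibitor, stood at 4945, 6597 and 5288 in Ly6C+ and at 478, 630 and 552 in Ly6C- libraries, 10.1-fold higher (limma adjusted p = 8.68e-07). Lrg1, a secreted leucine-rich glycoprotein, was 14.6-fold higher (87.8, 189 and 91.9 against 9.84, 10.2 and 5.24; limma adjusted p = 3.51e-05). Steap4, a metalloreductase, was 9.86-fold, the iron-siderophore binder Lcn2 6.51-fold and haptoglobin (Hp) 3.55-fold higher.

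Signalling and nuclear targets were also among those that rose. Myc, a growth-promoting transcription factor gene, was 3.11-fold higher. Bcl3, an NF-kB cofactor, was 1.68-fold, the kinase gene Pim1 2.16-fold and the adhesion molecule gene Icam1 1.95-fold higher in Ly6C+ pCAFs. The Icam1 call (limma adjusted p = 0.0218) held in 17 of 21 alternatives, and ended without Ly6C+ replicate 1 (0.103), without Ly6C+ replicate 3 (0.0553) and with every library scaled to its total (0.0608). Cebpd rested on 41 and 5 reads (5.17-fold). Without Ly6C- replicate 3 the ratio of its means was 10.8, with only 2 Ly6C- reads left. The Cebpd call (limma adjusted p = 0.0369) ended without any 1 of the other 5 libraries (limma adjusted p = 0.0506 to 0.182). Saa3, an acute-phase apolipoprotein, had overlapping groups (12019, 10532 and 7853 against 8504, 2536 and 3738), and its call (limma adjusted p = 0.0447) held in 8 of 21 alternatives. The ratio of its means was 2.06, or 3.23 without Ly6C- replicate 1.

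The 2 targets that fell were Vegfa and Timp1. Vegfa, an angiogenic factor gene, stood at 322, 363 and 379 in Ly6C+ and at 1123, 1035 and 996 in Ly6C- libraries, 2.96-fold lower (limma adjusted p = 4.07e-05). Timp1, an inhibitor of matrix metalloproteinases, stood at 4692, 5080 and 5633 against 10276, 11220 and 14566, 2.34-fold lower (limma adjusted p = 0.00112). Among those that did not pass, Cebpb had means of 984 and 893, Mcl1 of 427 and 282, Hif1a of 132.5 and 77.0 and Ccnd1 of 35.4 and 62.9. Without Ly6C- replicate 3 the ratio of means of Hif1a rose from 1.72 to 2.69 and Hif1a passed (limma adjusted p = 0.0259). Without Ly6C- replicate 1 that ratio was 1.28 (limma adjusted p = 0.532). Of 21 alternatives, Hif1a passed in 3, and Mcl1 and Ccnd1 in 2 each. Lcn2, Hp and Lrg1 are also made by granulocytes. Without Ly6C+ replicate 1, which held the granulocyte RNA, 10 targets were higher and 2 lower, and Lcn2, Hp and Lrg1 still passed (limma adjusted p = 0.000418, 0.0107 and 0.000414). Granulocyte markers were above 0 in the other Ly6C+ libraries too, and their part in the target genes was not tested.

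**Figure D4:**
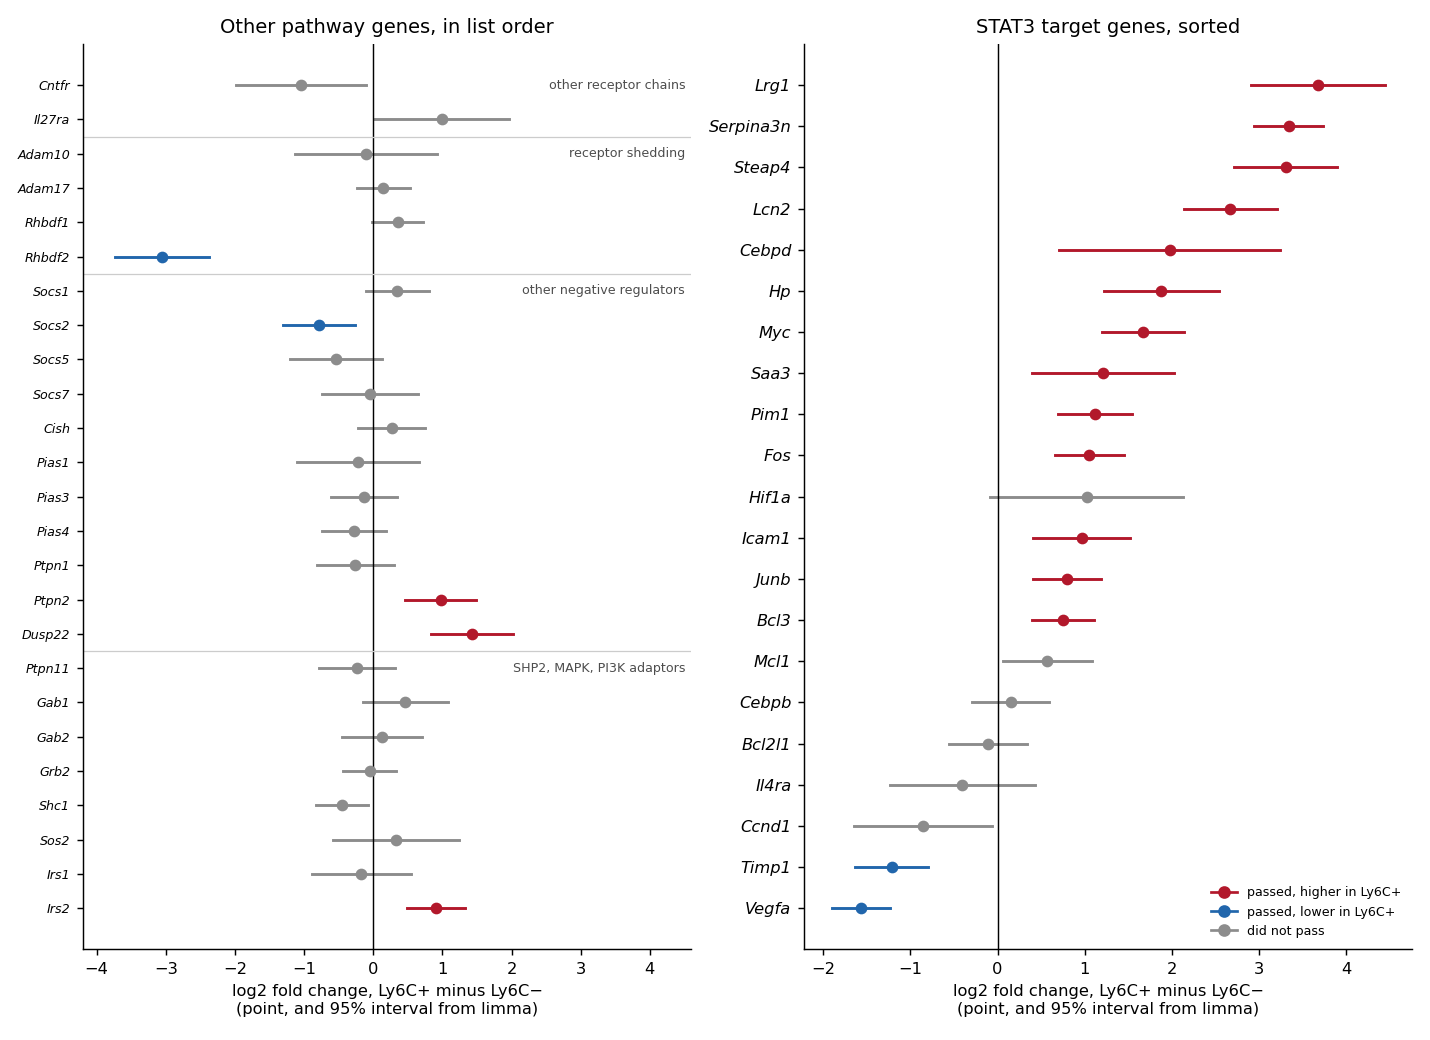
Log2 fold changes (Ly6C+ minus Ly6C-) with unadjusted 95% intervals from limma, for other receptor chains, shedding genes, negative regulators and adaptors in list order (left) and for the STAT3 target genes sorted by size (right). Rhbdf2 at -3.05 lies farthest left on the left panel, and Lrg1, Serpina3n and Steap4 lie above 3 on the right panel.

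Of 9 JAK kinases and other STATs tested, 2 rose, Jak1 and Stat5b, against 9.41% higher of all tested genes. Jak1, the main kinase on gp130, stood at 385, 353 and 561 in Ly6C+ and at 192, 190 and 319 in Ly6C- libraries, 1.86-fold higher (limma adjusted p = 0.0252). Stat5b was 1.65-fold higher (75.6, 78.2 and 70.3 against 54.1, 35.7 and 45.9; limma adjusted p = 0.0384). Neither call held throughout: both ended without Ly6C+ replicate 1 (limma adjusted p = 0.062 for Jak1 and 0.109 for Stat5b), without Ly6C+ replicate 3 (0.0939 and 0.069) and without Ly6C- replicate 2 (0.116 and 0.169). The Jak1 call also ended without Ly6C- replicate 1 (0.0603), and the Stat5b call without Ly6C+ replicate 2 (0.131) or Ly6C- replicate 3 (0.0518). With every library scaled to its total, and with no mean-variance trend in limma, both calls ended too. Jak2 had a mean of 166 in both groups and did not pass, nor did Tyk2 and Stat2.

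Of 11 other negative regulators, 2 were higher in Ly6C+ pCAFs, 1 was lower and 8 did not pass, where 17.1% of all tested genes passed (9.41% higher, 7.66% lower). Without Ly6C- replicate 2, and without Ly6C+ replicate 3, 1 of the 11 passed. Dusp22, a phosphatase that can act on STAT3, was 2.70-fold higher (54.3, 45.1 and 51.0 against 15.7, 25.5 and 14.4; limma adjusted p = 0.00362) and passed in all 21 alternatives. Ptpn2, a phosphatase of JAK1 and STATs, was 1.97-fold higher (limma adjusted p = 0.0142). Its call ended without Ly6C- replicate 2 or Ly6C+ replicate 3 (limma adjusted p = 0.0570 and 0.0597). Socs2, an inhibitor of growth hormone signalling, was the member that fell (109 ± 25.0 against 188 ± 44.2, SD, n = 3; limma adjusted p = 0.0446), a call that ended without any 1 library except Ly6C- replicate 1 (limma adjusted p = 0.0537 to 0.169). Socs1 (means 162 and 129), Cish (92.4 and 78.3) and Ptpn1 (97.4 and 123) did not pass. Among the SHP2, MAPK and PI3K adaptors, 1 of 8 rose, against 9.41% higher of all tested genes. It was the insulin receptor substrate gene Irs2 (1.88-fold; limma adjusted p = 0.00688), while Ptpn11, which encodes SHP2, had means of 40.9 and 47.5 (limma adjusted p = 0.598). The models of Clcf1, Jak1, Irs2, Bcl3, Junb, Cebpd, Pim1, Timp1 and Icam1 overlap another annotated gene.

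The genes whose levels followed Il6 and Il11 most closely over the 6 libraries were sought among 6703 others with a mean of at least 20, by Pearson's r of log2(value + 1). For Il6 these were Sbf2 (r = 0.988), Bcl2l11 (0.988), Vps8 (0.986) and A930013F10Rik (0.975). Each was highest in Ly6C+ replicate 3, as Il6 was. For Il11 they were Rps27l (0.997), Fzd1 (0.996), Ddx19a (0.9901) and Net1 (0.989), all with Ly6C+ replicate 1 lowest and the Ly6C- libraries highest. Within the family, Il6 had r = 0.78 with Il6st, 0.73 with Socs3, 0.22 with Osmr, -0.29 with Stat3 and -0.59 with Il11. Il6st ranked 337 and Socs3 497 among the 6703 genes, so many genes outside the family followed Il6 more closely. These values describe 6 libraries that share 1 contrast, and they carry no test.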

How the data were processed

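Gene expression was measured in 3 Ly6C+ and 3 Ly6C- libraries, grouped by their titles. The deposited signal values are normalised counts, which the authors made by dividing gene counts by 1 size factor per library. Reads had gone through bcl2fastq, STAR 2.4.2a and HTSeq with mm10 as the genome, per the submitters' processing notes. Not given in the sources used here were the annotation, the strand setting and the filter on genes.

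All values (100%) were whole multiples of 1 step per library within a tolerance of 0.001, so whole reads were recovered. Groups were compared with limma-trend (limma 3.58.1 in R 4.3.3) on log2(value + 1), over 9646 genes with a mean of at least 5, with Benjamini-Hochberg adjustment over all of them. On recovered reads, edgeR 4.0.16 (quasi-likelihood, TMM) called 1721 genes and DESeq2 1.42.0 called 1549. Alternatives were pseudocounts of 0.5 and 5, no filter or a mean of 20, 3 other scalings, other priors, a block for the replicate number, leaving out each library and thinning to the smallest library. The scripts were tested on simulated data.

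The family genes, the 7 pathway lists (72 genes, 63 in the table, 58 tested) and the markers were chosen with earlier results of these data known. All 10 family genes are named, and from each list the genes that passed and up to 4 others with the highest mean, apart from genes not reported here. The marker genes printed with values, and Il31ra, were picked after their values were seen. Coordinates came from GENCODE M21 and promoters from RefSeq (GRCm38.p6), matched by symbol for 10 of 10 genes.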

Additional observations from a re-analysis of the deposited data

How the results depend on the processing

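The count of family genes that passed, 6 of 10, ran from 4 to 7 with 1 library left out and was 9 with the replicate number as a block, in limma and in edgeR alike. Over all genes the count ran from 1121 to 1728 with 1 library left out and from 1287 to 2113 in the other alternatives. The difference in the Il6 to Il11 ratio was 3.78 to 4.04 under other pseudocounts and 4.01 with the replicate block. Same-numbered libraries of the 2 groups deviated together with r = 0.129, 0.0518 and 0.167, so the second pair is under 0.1 and the numbers were not taken as pairs. Every library correlated best with its own number, a hint from the data and not from the design. The block in limma called 2088 genes against 1647, and with it Il6 (adjusted p = 0.0261), Lif (0.00834) and Lifr (0.0411) passed too. Scaling every library to its total turned genes near 0: Stat3 (-0.055), Adam17 (-0.0485), Stat2 (-0.0603), Jak2 (-0.191), Gab2 (-0.0618) and Cebpb (-0.0421). Quantile normalization turned Cebpb (-0.0058), and thinning turned Grb2 (0.103). Jak2 also turned in DESeq2 (-0.0061), in edgeR (-0.0059 with RLE, -0.0061 with TMM and -0.0024 with the block) and with recomputed size factors (-0.00091). With 1 library left out, values of both signs were given by Stat3 (-0.047 to 0.341), Adam10 (-0.417 to 0.391), Jak2 (-0.0642 to 0.095), Tyk2 (-0.165 to 0.135), Ptpn1 (-0.415 to 0.0571) and Grb2 (-0.139 to 0.0024). The cause of these turns was not tested. None of these genes passed in any setting. Of 1192 values of family and pathway genes under the alternatives, 1081 kept direction and side of the threshold, 66 lost a call, 21 gained one and 24 turned. The depth limits Cntfr, Ctf1, Il27ra and Cebpd, which rest on 5 to 41 reads per group.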
